A study of Mus musculus with 6 samples.

Results

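The 10 genes described here, Serping1, Serpina3n, C4b, C3, Lcn2, Osmr, Cd44, Steap4, S1pr3 and Stat3, are markers of reactive astrocytes or parts of the complement system and of the cytokine signalling that drives astrocyte reactivity. They were picked by gene symbol and not by any measured value, and all 10 were present among the 23955 genes of each library. Of these, 8 had at least 1 read in some library and 6 had enough reads to be tested between brain regions. The question of the comparison is how the ribosome-bound mRNA of astrocytes in the diencephalon differs from that in cortical grey matter.

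The 6 libraries were 3 of diencephalon, dissected so as to leave out the tissue that surrounds the third ventricle, and 3 of cortical grey matter from which white matter and meninges were taken off. Every library pooled 3 mice aged 3 months, both sexes were used, and the groups differed in region alone. All mice had the genotype Slc1a3 +/- GFP+ Rpl22HA fl/fl, combining the allele Slc1a3tm1(cre/ERT2)Mgoe, the floxed allele Rpl22 tm1.1Psam/J of a B6N.129 line and an EGFP reporter, Tg(CAG-cat,-EGFP)1Rbns, of an FVB.B6 line, with C57BL/6 given as the strain. Tamoxifen by gavage, at 0.4 mg for each g of mouse, given 3 times at intervals of 48 hours from 9 weeks of age, switched on the haemagglutinin tag on the ribosomal protein Rpl22. The tag therefore marked cells in which the Slc1a3 (GLAST) locus drives CreERT2, 1 Slc1a3 copy carried the recombinase in mice of both regions, and mice without tamoxifen or with an injury were not analysed here. Tagged ribosomes were pulled down with their mRNA, which was amplified and sequenced on an Ion Proton instrument, and RNA taken before the pull-down was not used here.

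Astrocytes become reactive after injury, infection or inflammation. Cytokines of the interleukin-6 family, among them oncostatin M, act through gp130-containing receptors and JAK kinases to activate the transcription factor Stat3, which together with NF-kB signalling switches on genes such as Gfap, Serpina3n and Lcn2. Complement is a cascade of plasma proteins that glia also make: C1q or lectins start it, C4 and C2 form an enzyme that cleaves C3, and cleaved C3 tags cells and synapses for removal, while inhibitors such as the product of Serping1 hold it back. In the healthy brain many of these genes are low in astrocytes, and C3 in particular is used as a marker of one inflammatory reactive state.

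The libraries held 1733145 to 2334237 expected counts, the read numbers per gene that RSEM estimates, so that 3 counts corresponded to 1.40 to 1.58 CPM (counts scaled to a fixed library total) in diencephalon and 1.31 to 1.86 CPM in cortex. Cortical replicate 3 differed from both other cortical libraries by more than these did from each other: chi-square per degree of freedom over genes was 6.81 and 5.91 against them, 2.59 between them, 2.78 to 3.41 among the diencephalic libraries and 19.7 to 24.9 between regions. All 15 astrocyte markers were detected, and their summed level ran from 19625 to 22976 CPM in diencephalon and from 28694 to 35938 CPM in cortex. Slc1a3, the gene that drives the recombinase, averaged 747 ± 32.1 CPM in diencephalon and 1047 ± 270.2 CPM in cortex (SD, n = 3 each; edgeR adjusted p = 0.0244). Slc1a3 was called lower in diencephalon in 10 of 18 fits. Rpl22 averaged 22.9 ± 3.27 and 27.2 ± 4.01 CPM in diencephalon and cortex (edgeR adjusted p = 0.474). In such bulk samples, fewer cells of a type and less RNA per cell cannot be told apart.

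Between regions, 3 of the 6 tested genes were lower in the diencephalon: Serping1, which encodes C1 inhibitor, Osmr, the receptor subunit for oncostatin M, and Cd44, a receptor for the matrix sugar hyaluronan. Serpina3n, C4b and Stat3 did not pass the test. Of all 10568 genes tested, 29.6% were called at an adjusted p under 0.05 (edgeR quasi-likelihood test, Benjamini-Hochberg), with 14.9% higher and 14.8% lower in the diencephalon, and 42.6% had libraries that did not overlap in CPM between regions. The median log2 difference of the 6 genes was -0.54, against 0.01 over all tested genes, where a negative difference means lower in diencephalon. Osmr reached the low-count filter in 1 diencephalic and 3 cortical libraries, so it was tested through its cortical level. The count and the median include it. The differences of the others were -1.51 for Serping1, -1.06 for Cd44, -0.01 for C4b, 0.15 for Serpina3n and 0.17 for Stat3. Of the 4 genes left out by the low-count filter, C3 had reads in the diencephalon only, S1pr3 was low in both regions, and Lcn2 and Steap4 had no read in any library.

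**Figure D1:**
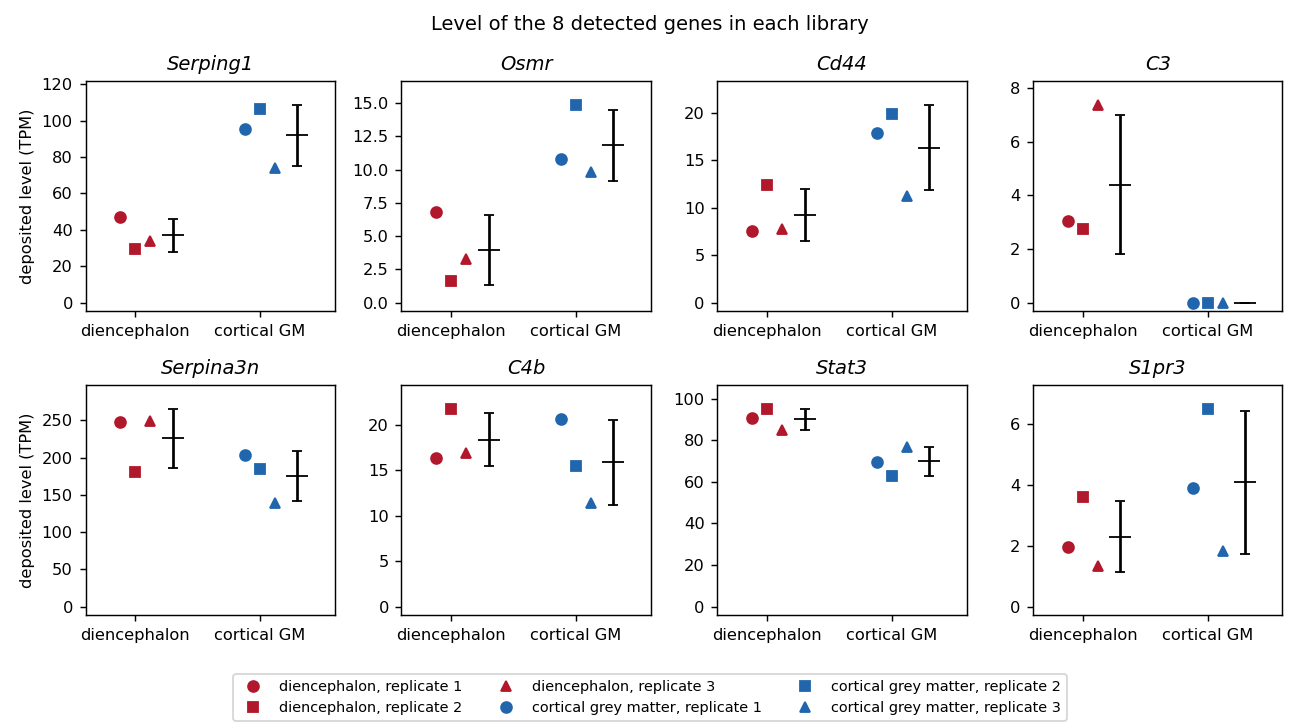
Deposited TPM (transcript levels scaled by length and to a fixed total) of the 8 detected genes in each library, with diencephalon left of cortical grey matter, and bars giving mean and SD over 3 libraries. Serping1 lies between 29.57 and 47.09 TPM in diencephalon and between 73.78 and 106.59 TPM in cortex, and C3 is above 0 in the diencephalic libraries only.

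Among the complement genes, Serping1 differed most clearly. Its product, C1 inhibitor, is a serpin that blocks the C1r and C1s proteases and so the start of the classical pathway. It was at 47.09, 29.57 and 34.03 TPM in the 3 diencephalic libraries and at 95.49, 106.59 and 73.78 TPM in the 3 cortical ones. Every diencephalic library was below every cortical library. In CPM, the scale of the test, Serping1 averaged 16.6 ± 4.36 in diencephalon and 47.7 ± 9.32 in cortex (SD, n = 3 each), a log2 difference of -1.51 ± 0.23 (SE), or 2.86-fold lower (edgeR adjusted p = 3.14e-05). It was called lower in all 18 fits that were run, with log2 differences from -1.76 to -1.30.

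C4b encodes a component that joins C2 in the enzyme that cleaves C3. It was at 16.4, 21.77 and 16.95 TPM in diencephalon and at 20.66, 15.49 and 11.42 TPM in cortex, so the regions overlapped. The log2 difference was -0.01 ± 0.24, with a 95% interval of -0.51 to 0.49 (edgeR adjusted p = 0.981), and its sign changed between fits. The near-identical gene C4a had 3.32 counts, all in diencephalic replicate 2, and adding them to C4b gave a difference of 0.02 ± 0.24 (edgeR adjusted p = 0.969). The reads of C4a and C4b are hard to separate, so their split is uncertain.

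C3, the component on which all complement pathways converge, had 9, 7 and 19 counts in the 3 diencephalic libraries and 0, 0 and 0 counts in the 3 cortical ones. These correspond to 3.05, 2.73 and 7.37 TPM in diencephalon, with replicate 3 the highest. Against a floor of 3 counts over the 3 cortical libraries, the measured C3 level in diencephalon was 11.3-fold higher. The exact 95% interval of the ratio of summed counts, which also covers counting error in the 35 diencephalic counts, had a lower limit of 8.74. It fell below the low-count filter of the test, since only 1 diencephalic and no cortical library reached 5.22 CPM. Without that filter 21.2% of 16615 genes were called, and C3 was called higher (edgeR adjusted p = 9.58e-07). Leaving out each library in turn kept that call, with adjusted p-values from 2.44e-06 to 0.00128, the highest without diencephalic replicate 3. With limma on log2(TPM + 1), where 21.5% of 14296 genes were called, the adjusted p was 0.0201, but C3 passed the filter of a mean of 1 TPM through its diencephalic level alone, so this adds nothing to the counts. The summed choroid plexus and ependymal markers, from 147 to 178 CPM in diencephalon and from 30.4 to 72.4 CPM in cortex, moved the same way, with 8 of 10 of them higher on average and Tmem212 at 0 in cortex. The ratio of that sum, diencephalon over cortex, was 3.17, and 1.73 without Ttr, while the choroid plexus marker Kcnj13 was called lower, at 5.90 ± 0.339 CPM in diencephalon and 28.5 ± 5.44 CPM in cortex (edgeR adjusted p = 3.26e-06). Summed microglial markers ran from 454 to 823 CPM in diencephalon and from 628 to 1465 CPM in cortex, with 14 of 15 lower on average. The part of either cell type in the C3 reads was not tested.

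The 250 bases before the start of C3, Osmr and Cd44 are shown because these genes differed between the regions. They are RefSeq sequence of the mouse build GRCm38.p6, given 5′ to 3′ on the minus strand, which carries all of them: C3 at chr17:57228137-57228386, Osmr at chr15:6874314-6874563 and Cd44 at chr2:102901666-102901915. Capitals mark the letters TTGCNNAA, a core of sites for C/EBP factors, which act in the acute-phase response.
C3: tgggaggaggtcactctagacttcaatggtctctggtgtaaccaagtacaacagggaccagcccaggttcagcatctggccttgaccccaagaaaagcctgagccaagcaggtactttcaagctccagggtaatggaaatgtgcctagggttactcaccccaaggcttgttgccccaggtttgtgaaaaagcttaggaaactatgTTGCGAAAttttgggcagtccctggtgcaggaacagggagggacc
Osmr: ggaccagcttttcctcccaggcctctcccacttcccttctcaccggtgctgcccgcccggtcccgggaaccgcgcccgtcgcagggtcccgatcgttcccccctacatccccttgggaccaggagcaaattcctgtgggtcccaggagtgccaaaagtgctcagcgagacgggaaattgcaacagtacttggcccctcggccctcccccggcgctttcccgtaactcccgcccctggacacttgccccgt
Cd44: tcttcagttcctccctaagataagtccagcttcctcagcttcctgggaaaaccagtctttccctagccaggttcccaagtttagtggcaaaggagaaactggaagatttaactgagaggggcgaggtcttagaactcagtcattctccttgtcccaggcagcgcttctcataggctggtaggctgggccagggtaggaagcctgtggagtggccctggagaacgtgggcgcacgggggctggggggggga
In this window C3 held TTGCGAAA 45 bases before its start, and Osmr and Cd44 had no match on either strand. The STAT core TTCNNNGAA was in none of the 3 windows. Of all 32851 promoter windows of this length, 9.56% held TTGCNNAA and 7.02% held TTCNNNGAA on either strand. Among the 8 of the 10 genes that had a promoter entry, TTGCNNAA also occurred in Lcn2 and Steap4, and TTCNNNGAA in Steap4. The Osmr window had 18 CpG dinucleotides, the Cd44 window 5 and the C3 window 1, against a median of 6 over all windows. A match is a description of letters and not a measured binding site.

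The other complement genes are given by their place in the cascade. Of 25 listed components, 24 were in the files and 5 passed the low-count filter. Among these, 1 was lower, 4 did not pass and none was higher, a share called of 20.0%, with a median log2 difference of -0.65. The gene that was lower is Colec12, a collectin scavenger receptor, at 13.4 ± 3.27 CPM in diencephalon and 28.5 ± 12.1 CPM in cortex (SD, n = 3 each; edgeR adjusted p = 0.00789). Its call was lost on the TPM scale, with adjusted p from 0.108 to 0.127, and without cortical replicate 2 (0.103). The C1q chains, which start the classical pathway and are microglial markers, did not pass: C1qa averaged 5.55 CPM in diencephalon and 6.33 CPM in cortex (edgeR adjusted p = 0.782), C1qb 39.2 and 62.5 CPM (0.127), and C1qc 46.5 and 106 CPM (0.183). Below the filter, C2 had 6, 1 and 1 counts in diencephalon and 12, 13 and 12 counts in cortex. C6, C8g, C9, Cfd and Mbl1 had no read in any library.

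Of 19 listed complement inhibitors, 18 were in the files and 13 were tested. Of these 3 were higher and 3 lower, 46.2% in all, and the median log2 difference was 0.01. Those lower included Serping1 and Vtn, which blocks the membrane attack complex. Vtn, also a pericyte marker, averaged 32.4 ± 8.83 CPM in diencephalon and 132 ± 55.8 CPM in cortex, 4.08-fold lower (edgeR adjusted p = 0.00514). The genes that were higher were membrane proteins with complement control domains: Susd4 at 54.6 ± 6.99 CPM in diencephalon and 32.9 ± 4.72 CPM in cortex (edgeR adjusted p = 0.00597), Sez6l at 109.7 ± 6.48 and 72.8 ± 7.40 CPM (0.00346), and Sez6l2, which lost its call with DESeq2 and without any of 5 single libraries. Clu, the abundant astrocytic clusterin, averaged 1029 ± 141 CPM in diencephalon and 1556 ± 545 CPM in cortex and did not pass (edgeR adjusted p = 0.0779). Of 9 listed complement receptors, Itgam and Itgb2 were tested and neither passed, and Serping1 and Vtn were called in every fit that was run.

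Oncostatin M and Stat3 signalling is represented by Osmr and Stat3. Osmr pairs with gp130 to form the oncostatin M receptor. It had 19, 4 and 8 counts in diencephalon and 36, 42 and 23 counts in cortex, or 6.84, 1.66 and 3.3 TPM in diencephalon and 10.82, 14.87 and 9.8 TPM in cortex. No diencephalic library reached the lowest cortical one. Osmr averaged 5.06 ± 3.47 CPM in diencephalon and 17.5 ± 4.31 CPM in cortex (SD, n = 3 each), a log2 difference of -1.75 ± 0.40, or 3.35-fold lower (edgeR adjusted p = 0.00184). Only 1 diencephalic library reached the low-count filter, so Osmr was tested through its cortical level and its call adds nothing to the count of members called. It was called in all 17 fits that tested it, with adjusted p from 2.76e-05 to 0.0499, and had too few counts to be tested at a minimum count of 30.

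Stat3, the transcription factor of this pathway, was the least variable of the 8 detected genes, with a coefficient of variation in CPM of 5.97% in diencephalon and 9.03% in cortex. It was at 90.68, 94.77 and 84.73 TPM in diencephalon and at 69.59, 62.73 and 76.94 TPM in cortex, without overlap. In CPM the regions overlapped, at 109, 111 and 99.3 in diencephalon and 93.4, 86.8 and 103.7 in cortex. The log2 difference was 0.17 ± 0.14 with a 95% interval of -0.11 to 0.46 (edgeR adjusted p = 0.377). On the log2(TPM + 1) scale it was 0.37 (limma adjusted p = 0.0893). That scale moved the median log2 difference of all genes to 0.22, so that Stat3 was 0.15 above that median.

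Around them, 25 of the 38 listed genes of the gp130 and STAT3 pathway were tested. Of these 3 were higher and 4 lower, 28.0% in all, close to the share over all genes, and the median log2 difference was -0.07. Il6st, which encodes gp130, averaged 467 ± 4.70 CPM in diencephalon and 341 ± 33.6 CPM in cortex, 1.37-fold higher (edgeR adjusted p = 0.00708), and was called in all 18 fits. Jak1, the kinase bound to gp130, averaged 166 ± 0.345 CPM in diencephalon and 215 ± 2.88 CPM in cortex (edgeR adjusted p = 0.0211), a call lost on the TPM scale and without any of 4 single libraries. Socs5 and Socs7, of the suppressor of cytokine signalling family, were lower, while Stat5b and Pias3 were higher. Of these calls, Stat5b and Pias3 were lost with DESeq2 and without any of 4 single libraries. Stat5b was also lost with limma voom, with the length trend removed and on the TPM scale. Both Socs genes lost their calls on the TPM scale, and Socs5 also without any of 4 single libraries. Lifr, the other partner of gp130 that binds oncostatin M in mice, did not pass, at 151 CPM in diencephalon and 162 CPM in cortex (edgeR adjusted p = 0.605). Of the ligands, Il6 and Il11 had no read, Osm had 1 count in 1 cortical library, and Lif had 1, 3 and 8 counts in diencephalon and 14, 4 and 2 in cortex.

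Of 20 listed STAT3 target genes, 10 were tested, none was higher and 4 were lower, 40.0% in all, with a median log2 difference of -0.51. Mcl1, a survival factor, averaged 298 ± 10.2 CPM in diencephalon and 447 ± 52.1 CPM in cortex, 1.5-fold lower (edgeR adjusted p = 0.00107). Vegfa, the vascular growth factor, averaged 57.2 ± 4.08 CPM in diencephalon and 93.5 ± 10.3 CPM in cortex, 1.64-fold lower (edgeR adjusted p = 0.00127). The others were Bcl6 and Fosl2. Bcl6 lost its call on the TPM scale and without diencephalic replicate 2 or cortical replicate 1. Fosl2 lost its call with log2(TPM + 0.1) and with unfiltered log2(TPM + 1) (limma adjusted p of 0.0518 and 0.0521). On the TPM scale the number of these targets called lower was 2 of 16 with a pseudocount of 1, 1 of 16 with 0.1 and 0 of 18 without a filter. The list medians were then -0.08, -0.17 and 0.02, and Zfp36 was called higher in each of these fits. Zfp36 was also called higher with the length trend removed. Mcl1 lost its call on the TPM scale, with limma adjusted p from 0.0563 to 0.0651. Socs3, the feedback inhibitor of this pathway, did not pass, at 2.92 CPM in diencephalon and 6.31 CPM in cortex (edgeR adjusted p = 0.0994). Of 27 listed NF-kB and cytokine response genes, 13 were tested, 1 was higher, the NF-kB subunit Rela, and 1 lower, the adhesion molecule Vcam1, 15.4% in all with a median log2 difference of 0.09. Rela lost its call without diencephalic replicate 2 or cortical replicate 2, and Vcam1 on the TPM scale and without cortical replicate 2. Il1b, Ccl2, Cxcl1 and Cxcl2 had no read in any library.

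**Figure D2:**
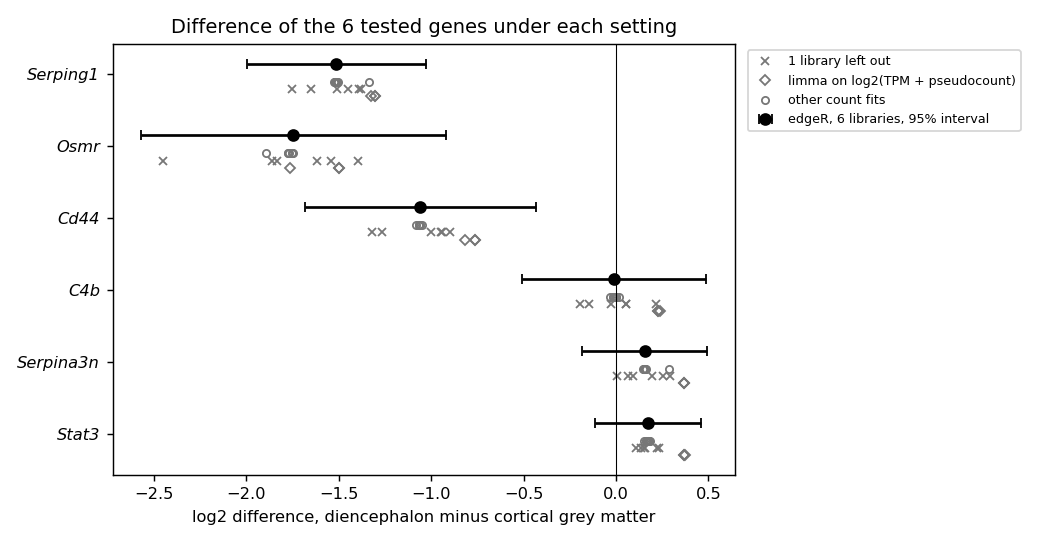
Log2 difference, diencephalon minus cortical grey matter, of the 6 tested genes: filled points with 95% intervals are the edgeR fit of 6 libraries and grey symbols the other fits. The Serping1 and Osmr values lie below 0 in each fit, and the C4b values lie on both sides of 0.

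Cd44, the hyaluronan receptor, was at 7.53, 12.36 and 7.73 TPM in diencephalon and at 17.87, 19.89 and 11.27 TPM in cortex. Diencephalic replicate 2 was thus above cortical replicate 3 in TPM, although the CPM values, 8.89, 14.2 and 8.88 in diencephalon and 24.0, 27.2 and 14.9 in cortex, did not overlap. The log2 difference was -1.06 ± 0.30, or 2.08-fold lower (edgeR adjusted p = 0.0102). It was called in 12 of 17 fits: the adjusted p was 0.131 to 0.151 with limma on the TPM scale, 0.0567 without diencephalic replicate 3 and 0.0628 without cortical replicate 2.

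Among 23 listed hyaluronan and CD44 genes, 12 were tested, 1 was higher and 5 were lower, 50% in all, with a median log2 difference of -0.43. Spp1, the CD44 ligand osteopontin, averaged 1.87 ± 0.653 CPM in diencephalon and 29.3 ± 19.3 CPM in cortex, 15.2-fold lower (edgeR adjusted p = 0.000193). No diencephalic library reached 5.22 CPM for Spp1, so it was tested through its cortical level. Its call adds nothing to the list's count. Hapln1, which links hyaluronan to proteoglycans, averaged 38.0 ± 8.99 CPM in diencephalon and 182 ± 37.8 CPM in cortex, 4.77-fold lower (edgeR adjusted p = 7.36e-09). Ezr, a linker of CD44 to actin found in fine astrocyte processes, averaged 48.2 ± 2.82 CPM in diencephalon and 183 ± 7.21 CPM in cortex, 3.79-fold lower (edgeR adjusted p = 8.14e-10). Msn, its relative, was 2.00-fold lower (edgeR adjusted p = 0.00121). Hyal2, a hyaluronidase, was higher, but not without diencephalic replicate 3.

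Serpina3n, a secreted serine protease inhibitor and a general marker of reactive astrocytes, had the highest level of the 10 genes in both regions. It was at 248.43, 180.13 and 249.31 TPM in diencephalon and at 203.31, 184.28 and 138.43 TPM in cortex, and the regions overlapped. The log2 difference was 0.15 ± 0.16 with a 95% interval of -0.18 to 0.49 (edgeR adjusted p = 0.510), and no fit called it. Some of its counts were fractional because it shares sequence with other Serpina3 genes, none of which exceeded 7.63 counts in a library.

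The serpin family, to which Serping1 and Serpina3n belong, had 26 listed genes and 9 tested, of which 2 were higher and 4 lower, 66.7% in all, with a median log2 difference of -0.20. Serpini1, the neuronal inhibitor neuroserpin, averaged 34.4 ± 5.90 CPM in diencephalon and 130.2 ± 14.8 CPM in cortex, 3.79-fold lower (edgeR adjusted p = 1.41e-08). Serpinf1, the secreted pigment epithelium-derived factor, averaged 29.0 ± 6.79 CPM in diencephalon and 93.9 ± 27.9 CPM in cortex, 3.22-fold lower (edgeR adjusted p = 4.47e-06). Serpind1 was 4.60-fold lower (edgeR adjusted p = 0.000593), but no diencephalic library reached 5.22 CPM, so it was tested through its cortical level. Serpinb9 and Serpine2 were higher. Neither was called without diencephalic replicate 1, Serpinb9 was called in 13 of 18 fits, and Serpine2 lost its call also with limma voom and without cortical replicate 3.

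S1pr3, a receptor for the lipid sphingosine 1-phosphate, had 5, 8 and 3 counts in diencephalon and 12, 17 and 4 counts in cortex. The regions overlapped, since cortical replicate 3 lay among the diencephalic libraries. The ratio of summed counts, diencephalon over cortex, was 0.471 with an exact 95% interval of 0.242 to 0.881 that covers counting error only. S1pr3 missed the low-count filter, and without the filter it was not called (edgeR adjusted p = 0.191). Of the 19 listed genes of sphingosine 1-phosphate signalling, 10 were tested, 4 were higher and 1 was lower, 50% in all, with a median log2 difference of 0.03. The major astrocyte receptor S1pr1 was lower, at 241 ± 44.7 CPM in diencephalon and 364 ± 91.9 CPM in cortex (edgeR adjusted p = 0.0186), and the exporter Spns2 was higher, at 40.3 ± 0.541 CPM in diencephalon and 26.6 ± 0.532 CPM in cortex (0.0236). Sgpl1, Sgpp2 and Spns1 were also higher. The count of higher genes was 1 with DESeq2, and 1 without any 1 of the diencephalic libraries or without cortical replicate 2. Spns2 was called in 12 of 18 fits, and lost its call with DESeq2 and without any single library except cortical replicate 3. S1pr1 lost its call on the TPM scale and without any of 4 single libraries.

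Lcn2, an iron-carrying lipocalin, and Steap4, a metalloreductase, are among the most strongly induced reactive astrocyte genes after inflammation. Both had 0 counts in all 6 libraries, which allows up to 0.504 CPM over the diencephalic libraries and 0.519 CPM over the cortical ones, for counting error only. Of the 19 listed lipocalin and iron genes, 14 were tested, 6 were higher and 2 lower, 57.1% in all, with a median log2 difference of -0.02. Those higher were Steap2, Tfrc, Trf, Slc11a2, Heph and Ireb2. Heph, a ferroxidase, averaged 30.5 ± 3.58 CPM in diencephalon and 11.4 ± 0.844 CPM in cortex, 2.66-fold higher (edgeR adjusted p = 0.000141). Trf, the transferrin made mainly by oligodendrocytes in brain, averaged 74.9 ± 20.5 CPM in diencephalon and 41.7 ± 2.15 CPM in cortex (edgeR adjusted p = 0.00213). Summed oligodendrocyte markers were 2.24-fold higher in diencephalon, from 1801 to 2398 CPM there and from 817 to 1061 CPM in cortex, with all 10 markers higher on average, and their part in these iron genes was not tested. Lower were Steap3 and Cp, the ferroxidase ceruloplasmin. Steap3 lost its call with DESeq2, on the TPM scale and without any of 4 single libraries, Steap2 on the TPM scale and without diencephalic replicate 3 or cortical replicate 2, and Ireb2 without diencephalic replicate 2 or 3 or cortical replicate 1.

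Read against published reactive astrocyte signatures, 6 of the 13 listed pan-reactive genes were tested and 5 were lower in the diencephalon, 83.3%, with a median log2 difference of -1.25. Over all tested genes 14.8% were called lower. The list's count and median include Osmr, which was tested through its cortical level. Cd44 and Osmr are described above. Cp averaged 14.2 ± 2.62 CPM in diencephalon and 40.3 ± 8.80 CPM in cortex, 2.83-fold lower (edgeR adjusted p = 5.20e-05). Vim, an intermediate filament protein, averaged 23.7 ± 10.6 CPM in diencephalon and 64.8 ± 12.3 CPM in cortex, 2.71-fold lower (edgeR adjusted p = 0.000328). Gfap, the classical astrocyte filament, averaged 212 ± 46.3 CPM in diencephalon and 321 ± 33.4 CPM in cortex (edgeR adjusted p = 0.00367), and was not called on the TPM scale, where the adjusted p was 0.107 to 0.124. On that scale 3 of 9 tested genes of the list were lower. Of the 12 listed genes linked to neuroinflammation, 5 were tested, and Serping1 was lower and Amigo2 higher, 40.0% in all. The median log2 difference was 0.57. Amigo2, an adhesion molecule, was at 13.3 ± 2.04 CPM in diencephalon and 2.55 ± 1.30 CPM in cortex, 5.05-fold higher (edgeR adjusted p = 0.000250). No cortical library reached 5.22 CPM for Amigo2, so it was tested through its diencephalic level. Its call adds nothing to the list's count. Of the 12 genes linked to ischaemia, Ptgs2, the cyclooxygenase also found in cortical neurons, was the only one tested. It was 10.1-fold lower, at 3.45 ± 2.63 CPM in diencephalon and 36.1 ± 2.02 CPM in cortex (edgeR adjusted p = 4.38e-07). With 12, 8 and 1 counts in diencephalon and 79, 72 and 57 in cortex, Ptgs2 too was tested through its higher region.

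**Figure D3:**
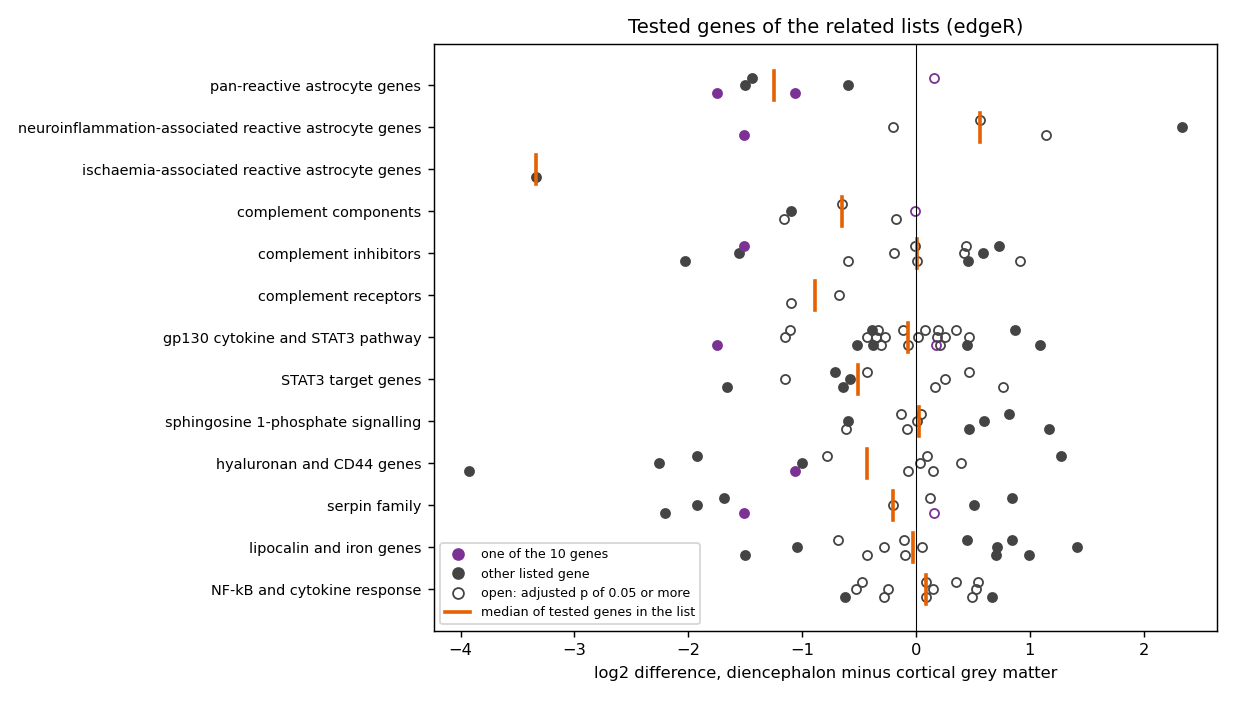
Log2 difference, diencephalon minus cortical grey matter, of each tested gene in the 13 related lists, filled where the edgeR adjusted p was under 0.05, with a bar at each list's median. The pan-reactive median is at -1.25 and the complement inhibitor median at 0.01, and genes that passed lie on both sides of 0 in most lists.

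Markers of several cell types moved with region, beside Serping1, Osmr, Cd44 and the lists above. The meningeal and fibroblast sum ran from 830.5 to 1258 CPM in diencephalon and from 4562 to 8272 CPM in cortex, 5.92-fold lower, and 2.96-fold lower without Ptgds. All 14 of its markers were lower on average, 12 of the 13 tested were called lower, and none was at 0 in all libraries of a region. The vascular sum, from 180 to 237 CPM in diencephalon and from 264 to 416 CPM in cortex, was 1.68-fold lower, and 1.22-fold lower without Vtn, with 12 of 18 markers lower. The astrocyte sum was 1.58-fold lower, and 1.41-fold lower without Slc1a2, with 11 of 15 markers lower. Of the 15 tested astrocyte markers 1 was called higher and 7 lower. The neuronal sum was 1.39-fold lower with 7 of 12 markers lower. Without Snap25 the neuronal ratio, diencephalon over cortex, was 1.00, and of its 12 tested markers 5 were called higher and 3 lower. Oligodendrocyte progenitor markers summed to 225 to 258 CPM in diencephalon and 286 to 308 CPM in cortex, and blood cell markers to 55.9 to 121 and 64.6 to 74.2 CPM in diencephalon and cortex, with S100a8, S100a9, Ngp, Camp and Cd3e at 0 in all libraries. For 3 libraries against 3 the smallest exact two-sided permutation p is 0.1, which all sums reached except the microglial (0.2) and blood cell (0.5) ones. The part of these cell types in the differences of Serping1, Osmr and Cd44 was not tested.

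**Figure D4:**
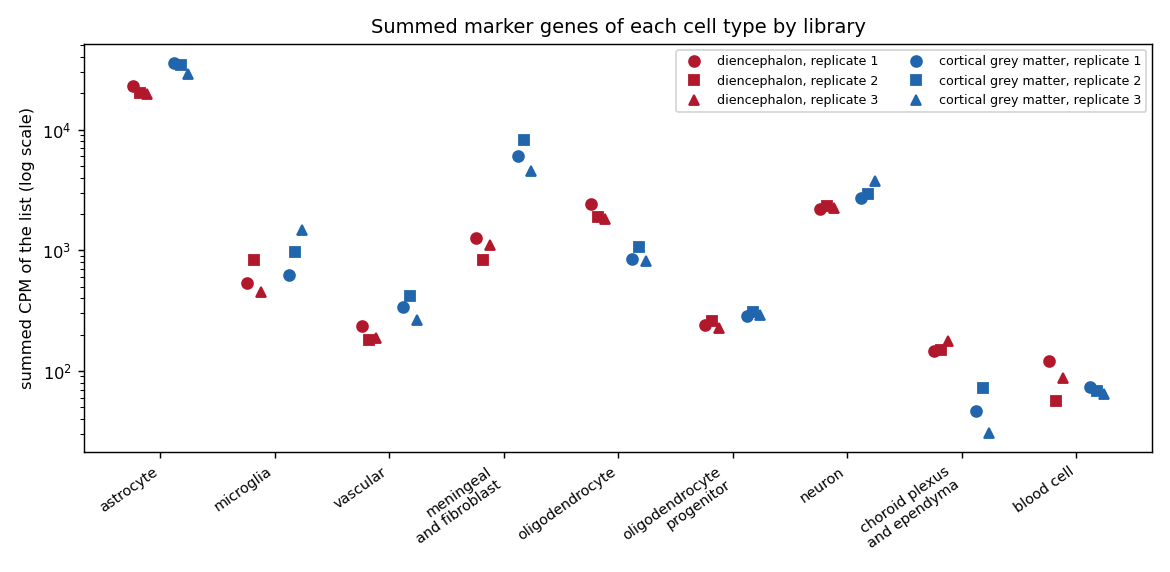
Summed CPM of the marker genes of 9 cell types in each library, on a log axis, with diencephalon left of cortical grey matter. The meningeal and fibroblast sums are 830.5 to 1258 CPM in diencephalon and 4562 to 8272 CPM in cortex, and the microglial sums overlap.

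The order of the levels can be read per length, in TPM. In diencephalon it was Serpina3n at 226 ± 39.7, Stat3 at 90.1 ± 5.05, Serping1 at 36.9 ± 9.10, C4b at 18.4 ± 2.95 and Cd44 at 9.21 ± 2.73 TPM, each above the next in every library (SD, n = 3). Below them C3 at 4.38 ± 2.59, Osmr at 3.93 ± 2.65 and S1pr3 at 2.3 ± 1.17 TPM overlapped. In cortex Serpina3n at 175 ± 33.4 TPM was again the highest. It was followed by Serping1 at 92.0 ± 16.7 and Stat3 at 69.8 ± 7.11 TPM, which overlapped, then by Cd44 at 16.3 ± 4.51, C4b at 15.9 ± 4.63 and Osmr at 11.8 ± 2.68 TPM, which overlapped with their neighbours, and by S1pr3 at 4.08 ± 2.34 TPM. Among all detected genes, the mean level over 6 libraries put Serpina3n at the 94.9th percentile, Stat3 at 82.8, Serping1 at 78.7, C4b at 49.6 and C3 at 20.7.

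The 5 genes whose pattern over the 6 libraries was most like that of Serping1, by Pearson's r of log2 CPM among 10567 genes, were Bmp7 (0.999), Pdia3 (0.997), Tceb1 (0.996), Ncan (0.996) and Rpl6 (0.996). All of these r values rest on the same 6 libraries in 2 regions, and 319 genes reached at least 0.95. Bmp7, a secreted growth factor, averaged 20.6 ± 5.05 CPM in diencephalon and 72.9 ± 16.7 CPM in cortex, and Ncan, the proteoglycan neurocan, 763 ± 157 CPM in diencephalon and 1601 ± 168 CPM in cortex.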

How the data were processed

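Per the labels' protocols, ribosome-bound mRNA was column-purified, amplified with the Ovation system and sequenced on an Ion Proton. Replicates were pools of 3 mice; no label ties libraries of the same number to the same mice, so p-values measure the spread between pools. RSEM and the build mm9 are named in the submitters' processing notes; the aligner, the strand setting and versions were not given in the sources used here. The deposited files give expected counts, TPM and FPKM per gene, with length and effective length. In the deposited TPM and FPKM values, the authors' RSEM run divided counts by effective length and library total; FPKM was not used further. In each library 3.64% to 3.99% of expected counts were not whole. The ribosomal RNA precursor Rn45s, at 3.52% to 4.48% of counts in diencephalon and 1.77% to 2.23% in cortex, was kept.

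Expected counts were rounded, which moved totals by at most 6.94. Genes passing filterByExpr (minimum count of 10) were fitted with edgeR 4.0.16 (limma 3.58.1, R 4.3.3), TMM scaling, region as the only term, robust quasi-likelihood and Benjamini-Hochberg adjustment over all genes tested, at 0.05. CPM values use TMM library sizes, and SEs come from the F statistic. The common biological coefficient of variation was 13.6%. The code was tested on simulated counts. TPM values were tested with limma on genes averaging 1 TPM or more, as log2(TPM + 1) or log2(TPM + 0.1), where folds of low genes are understated. Further alternatives were RLE size factors, no filter, DESeq2 1.42.0, limma voom, a stricter minimum count (30), a replicate block, a length trend removed by a spline, and each library left out. Leaving out Rn45s, summing C4a with C4b, and leaving out each library without the count filter were added after seeing the data. Intervals and floors cover counting error only, as no molecular identifiers are named.

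Genes named were the 10 genes, up to 4 called genes with the smallest adjusted p in each of 13 lists, Slc1a3, Rpl22, Gfap, Vim, and the 5 genes most like Serping1 in pattern. Others were named after their values were seen, and 1 gene that the rule names is not reported here. A list's count covers genes past the filter, and a gene that passed through 1 region had to differ. The 10 genes and the lists were chosen with earlier results of these data known. Promoters came from RefSeq, build GRCm38.p6, matched by symbol for 8 of the 10 genes; no mm9 genome was used, so the coordinates are not those of the authors' build.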

Additional observations from a re-analysis of the deposited data

How the results depend on the processing

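Serping1, Osmr and Cd44 were called lower in the diencephalon with edgeR, with RLE size factors, DESeq2, limma voom, the length trend removed and Rn45s left out. With a minimum count of 30 the number of members called was 1 (Serping1), since Osmr and Cd44 were then not tested, and leaving out each library gave 2 to 3. With the replicate block 3037 genes and the same 3 members were called, against 3133 genes without it; same-numbered libraries showed no shared deviation in the data (correlations of deviations from the region means of 0.06, -0.10 and -0.01), so the numbers were not taken as pairs. With the block Stat5b and Pias3 were not called. On the log2(TPM + 1), log2(TPM + 0.1) and unfiltered log2(TPM + 1) scales, 958, 908 and 920 genes were lower in diencephalon, against 1559 with edgeR on counts. The share of calls that were higher was 68.9% with log2(TPM + 1) and 50.2% with edgeR, and the median log2 difference of all genes was 0.22, 0.23 and 0.21 on the 3 TPM scales. Of the lists, on log2(TPM + 1) and, except for the iron list, over more genes tested, the median was 0.13 for complement components, 0.17 for the gp130 and STAT3 pathway, 0.26 for hyaluronan and CD44 genes, 0.24 for lipocalin and iron genes, -0.24 for genes linked to neuroinflammation and -0.08 for NF-kB genes, all of opposite sign to the edgeR medians.

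The C4b difference, -0.01 in the edgeR fit, changed sign to 0.015 with the replicate block, to 0.23, 0.24 and 0.23 on the 3 TPM scales and to 0.017 with C4a and C4b summed, and ran from -0.20 to 0.22 when each library was left out; no fit called it. The summed oligodendrocyte progenitor markers, lower in CPM, gave a log2 difference of 0.14 in TPM, the astrocyte sum gave -0.48 and the meningeal and fibroblast sum -2.92. The causes were not tested. Of the other settings for the 10 genes, 106 kept their direction and call and 5, all for Cd44, lost the call. For the other named genes 571 kept it, 72 lost it and 0 changed sign. Depth limits C3, S1pr3, Osmr, Lcn2 and Steap4, whose levels lie at or near a few counts per library. S1pr3 was not called without the filter whichever library was left out, with adjusted p from 0.0679 to 0.667.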
